A study of Homo sapiens and Mus musculus with 8 samples.

Results

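The MHC and antigen presentation genes described here are 10 mouse genes, matched by symbol in the authors' deposited tables for the mouse melanoma line B16N: H2-D1, H2-K1, B2m, Tap1, Tap2, Tapbp, Erap1, Calr, H2-DMa and H2-DMb1. Of the 10, 9 had a row in each of the 3 B16N tables, which together name 15966 genes, and Calr had a row in none. RNA-seq was done on 8 samples with 1 labelled sample per group. In B16N these were wild-type cells collected after 2 weeks and after 5 weeks of UV exposure, a clone overexpressing Orai1 at day 0, and untreated wild-type cells at day 0 as the common control. The clone was grown after transfection with wild-type Orai1 fused to the fluorescent protein CFP, selection with G418 and cell sorting, so it stands for 1 clone and carries a selection step that its control does not, per the labels. The human lines WM983 and UACC257, both melanoma lines, were sampled as UV-exposed wild-type cells, labelled week 2 with UV3 in the title, and untreated wild-type cells at day 0. Since the UV samples were collected weeks after day 0, UV exposure and time in culture cannot be told apart.

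MHC class I molecules present peptides from inside the cell to CD8 T cells. The peptides are made by the proteasome, carried into the endoplasmic reticulum by the Tap1 and Tap2 transporter, trimmed there by the peptidase Erap1 and loaded with the help of tapasin (Tapbp) and calreticulin (Calr) onto a heavy chain such as H2-K1 or H2-D1 that is paired with beta-2 microglobulin (B2m). H2-DMa and H2-DMb1 encode the chains of the chaperone that loads MHC class II molecules, which are mainly made by professional antigen-presenting cells and can be induced by interferon gamma in other cells. B16 melanoma is widely used in tumour immunology because it shows little class I on its surface at rest and more of it after interferon.

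The tables hold a log2 fold change, a test statistic and a p-value per gene, with no level of any sample, so depth per sample is unknown and no value per sample can be given. The 3 B16N tables had 14648 usable genes for UV at 2 weeks, 14821 for UV at 5 weeks and 15041 for the Orai1 clone. Changes are given as log2 of treated over control, each with a standard error (SE) obtained by dividing it by the deposited statistic. Genes were called where the deposited p-value, adjusted by Benjamini and Hochberg's procedure across the whole table, was under 0.05. With 1 labelled sample a group, such a p compares these libraries and not the conditions, and the control library is common to the 3 comparisons. The label of B16N as a melanoma line was checked against melanocyte markers: all 8 had a row in each table, with SEs of 0.075 to 0.56 where no other symbol shared the values. Orai1 had no row in the B16N tables used here, so its overexpression in the clone could not be checked. Of 11 immune cell markers 5 had no row in any table, and of 6 fibroblast markers 5 had none.

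Of the 10 genes, H2-DMb1 was the single one called in all 3 comparisons, and it rose in each. The 3 comparisons use the same control library, so these calls are not independent. H2-D1, a classical class I heavy chain, rose after 2 weeks of UV, and Tap1, a subunit of the peptide transporter, rose in the Orai1 clone. B2m and Tapbp stayed within 0.20 of 0 on the log2 scale in each comparison. None of the 9 genes with a row was called lower against control.

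Among members with values of their own, 2 of 7 were called after 2 weeks of UV, both higher, where 7.67% of all genes were called, 3.13% higher and 4.55% lower. After 5 weeks of UV 1 of 6 was called, again higher, where 4.78% of all genes were called, 3.07% higher and 1.71% lower. In the Orai1 clone 2 of 8 were called, both higher, where 22% of all genes were called, 10.3% higher and 11.6% lower. The clone's share of members, 25%, is close to that of all its genes. The shares over all genes include symbols that share their values, which the member counts leave out, so the sets differ. The members' median log2 change was 0.73 after 2 weeks of UV, 0.96 after 5 weeks and 1.10 in the clone, against medians over all genes of 0.028, 0.025 and 0.072. Much of that gap lies in imprecise rows. With the members of SE at most 0.5 alone, which were H2-D1, B2m and Tapbp, the medians were -0.047, 0.074 and 0.20. All genes of SE above 1, symbols with shared values included, had medians of 0.35, 0.41 and 0.40. The 0.40 of the clone is the exact change that H2-M2, a gene of the lists below, shares there with 743 other symbols.

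**Figure D1:**
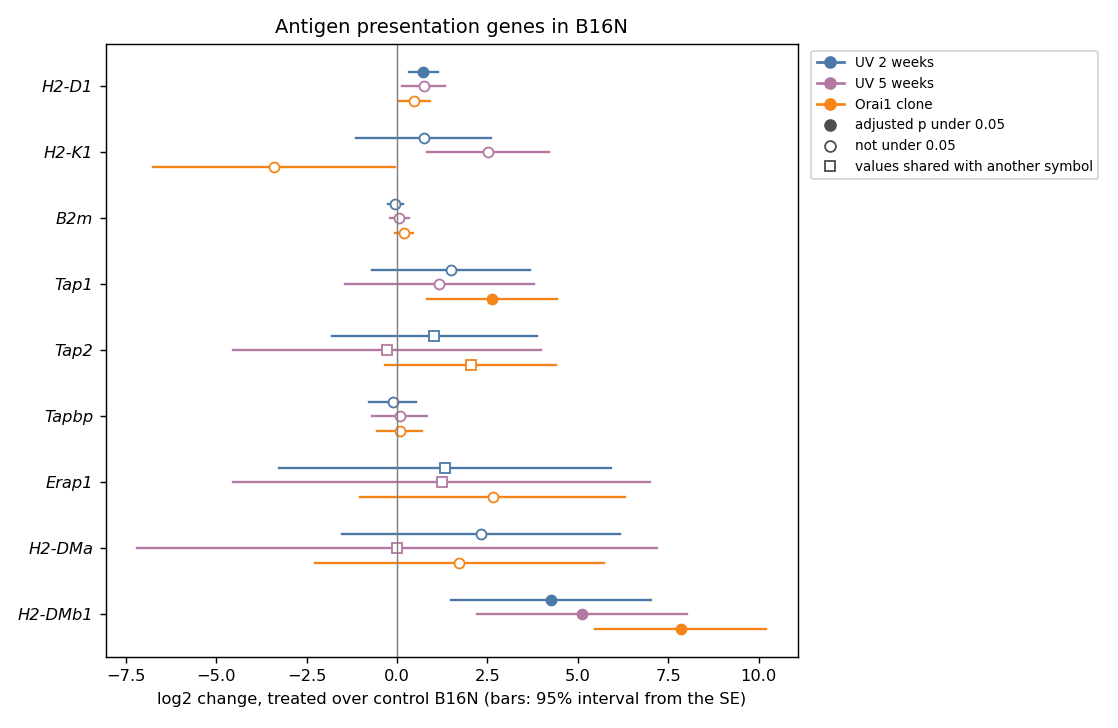
Log2 change of 9 antigen presentation genes in UV-exposed B16N and the Orai1 clone against control B16N; points are the changes, bars their 95% intervals, filled points have an adjusted p under 0.05, and squares share their values with another symbol. H2-DMb1 is filled in all 3 comparisons, and the intervals of B2m are the shortest.

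Of the classical class I heavy chains, H2-D1 was the more precisely measured and the one with a call. It rose by a log2 change of 0.73 after 2 weeks of UV (SE 0.21, adjusted p = 0.0101 by the authors' deposited table with Benjamini-Hochberg adjustment). This is 1.66-fold, with a 95% interval of 1.25 to 2.20. After 5 weeks of UV its change was 0.74 (SE 0.30, adjusted p = 0.182) and in the clone 0.48 (SE 0.22, adjusted p = 0.102) in the authors' deposited tables. The 3 changes were all positive and their 95% intervals overlapped, while 2 of them missed the threshold. At 5 weeks the SE of H2-D1 would have needed a change of 0.92 to be called, which exceeds the change seen at either UV time.

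H2-K1, the other classical heavy chain with a row, had changes of 0.73 after 2 weeks of UV (SE 0.95, adjusted p = 0.943), 2.51 after 5 weeks (SE 0.86, adjusted p = 0.0658) and -3.41 in the clone (SE 1.71, adjusted p = 0.157) in the authors' deposited tables. None of these passed. Its SE was several times that of H2-D1, and 73.2%, 68.6% and 80.6% of the genes in the 3 tables had a smaller one. H2-K1 and H2-D1 are closely similar genes, and the sources used here do not say how reads that match both were counted, so their separate values are uncertain. H2-K2, a further symbol of the H2-K region, had changes of 0.51 (SE 0.62), 0.45 (SE 0.71) and 0.86 (SE 0.58) in the authors' deposited tables and was not called.

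B2m, the light chain common to class I molecules, was the most precisely measured member. Its log2 changes were -0.047 after 2 weeks of UV (SE 0.11), 0.062 after 5 weeks (SE 0.14) and 0.20 in the clone (SE 0.13) in the authors' deposited tables. The 95% intervals ran from 0.838-fold to 1.12-fold, from 0.865-fold to 1.26-fold and from 0.962-fold to 1.36-fold. At these SEs an observed change of 0.31, 0.42 or 0.33 would have been called in the 3 comparisons, and the observed changes were smaller. In the clone the interval ends at 0.45 on the log2 scale, above that limit, so a shift of that size is not excluded.

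The peptide transporter is formed by the products of Tap1 and Tap2. Tap1 rose by 2.62 in the Orai1 clone (SE 0.91, adjusted p = 0.0219), a 6.17-fold change with a 95% interval of 1.79 to 21.3, in the authors' deposited table. Its changes of 1.49 after 2 weeks of UV (SE 1.11, adjusted p = 0.658) and 1.17 after 5 weeks (SE 1.33, adjusted p = 0.930) in the authors' deposited tables were not called. Those SEs would have needed changes of 3.21 and 4.03. Tap2 had exactly the values of Kif2c, a mitotic kinesin gene, in all 3 tables, so which of the 2 genes was measured is not known. The shared values were 1.03 after 2 weeks of UV (SE 1.45), -0.28 after 5 weeks (SE 2.17) and 2.04 in the clone (SE 1.21) in the authors' deposited tables, and none was called.

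Tapbp, which encodes tapasin and links the transporter to the class I heavy chain, had changes of -0.12 (SE 0.33), 0.074 (SE 0.38) and 0.080 (SE 0.32) after 2 weeks of UV, after 5 weeks and in the clone in the authors' deposited tables. Its intervals ran from 0.587-fold to 1.44-fold, 0.624-fold to 1.78-fold and 0.687-fold to 1.63-fold. At these SEs, observed log2 changes smaller in size than 0.96, 1.17 and 0.81 would not be called. Erap1 had changes of 1.33 (SE 2.34), 1.24 (SE 2.94) and 2.64 (SE 1.87) in the authors' deposited tables, with intervals that crossed 0 in each. After 2 weeks of UV it had the values of Gm5942 and Sema7a and after 5 weeks those of Kat6b and Robo3, while in the clone its values were its own. Unlike Tap2 and Kif2c, no symbol shared the values of Erap1 in every table. At the SE seen in the clone, an observed change of Erap1 smaller in size than 4.77 on the log2 scale would not be called. The limit was higher in both UV comparisons. The SE itself varied between comparisons, so these limits are not fixed for the gene.

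Of the class II chaperone, the beta chain gene H2-DMb1 had changes of 4.26 after 2 weeks of UV (SE 1.41, adjusted p = 0.0359), 5.12 after 5 weeks (SE 1.48, adjusted p = 0.0164) and 7.84 in the clone (SE 1.21, adjusted p = 2.52e-09) in the authors' deposited tables. The 95% intervals on the log2 scale were 1.5 to 7.02, 2.22 to 8.02 and 5.47 to 10.2. With SEs above 1 and no levels, whether the control held any read of H2-DMb1 is not known, and no fold is given. Among genes of SE above 1, calls were rare after UV, at 0.0525% of 3807 genes after 2 weeks and 1.06% of 4261 genes after 5 weeks, and 3.51% of 4157 genes in the clone. Of these calls 100% after 2 weeks, 100% after 5 weeks and 71.9% in the clone were higher. The direction of H2-DMb1 after UV is thus that of every call at such SEs. H2-DMb1 has a closely similar neighbour, H2-DMb2, which had no row, and the sources used here do not say how reads matching both were counted.

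The alpha chain gene H2-DMa did not pass. Its changes were 2.32 after 2 weeks of UV (SE 1.97) and 1.73 in the clone (SE 2.03) in the authors' deposited tables, and the 5-week row, at 0.0072 (SE 3.67), had the values of 29 other symbols. The SEs leave 95% intervals from -1.53 to 6.18 after 2 weeks and from -2.26 to 5.71 in the clone, so that after 2 weeks both 0 and the change of H2-DMb1 lie inside, and in the clone 0 lies inside and the change of H2-DMb1 above. Lyz2, a myeloid cell gene and the single immune marker of the list with values of its own, had changes of 0.38 after 2 weeks of UV (SE 0.94, adjusted p = 0.959), 3.47 after 5 weeks (SE 0.70, adjusted p = 6.84e-05) and 2.78 in the clone (SE 0.64, adjusted p = 1.77e-04) in the authors' deposited tables. Ptprc, the pan-leukocyte gene, had a row in the clone's table alone, where it had the values of 743 other symbols. The part of other cells in the rise of H2-DMb1 was not tested, and more cells of a type cannot be told apart from more RNA per cell in bulk samples.

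**Figure D2:**
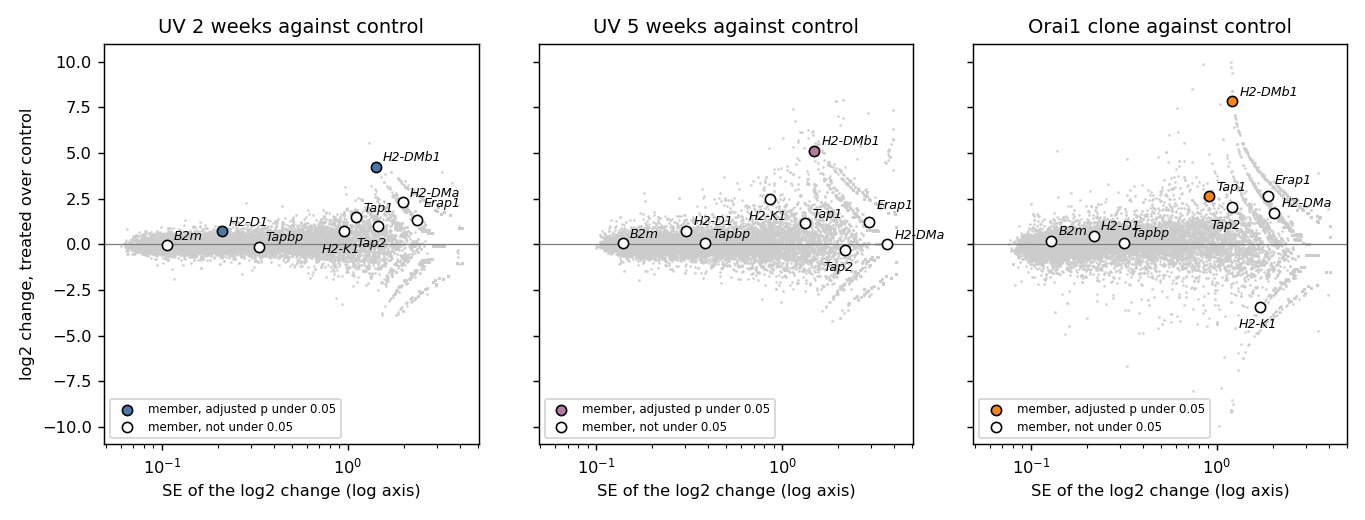
Log2 change of treated over control against its SE (log axis) for every usable gene of each B16N table in grey and the 9 antigen presentation genes as circles, filled where the adjusted p was under 0.05. H2-D1, B2m and Tapbp sit at SEs of at most 0.5, and H2-DMb1 lies above the other members in all 3 panels.

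The changes of the treated samples were then compared with one another by a normal test of the difference of the log2 changes, adjusted over 14083, 14105 and 14291 genes with a row in both tables. Of members that shared no values in either table, 0 of 6 differed between 5 and 2 weeks of UV, where 3.33% of all genes did, and 0 of 7 between the clone and 2 weeks of UV, where 11.7% did. At an unadjusted p under 0.05 the counts were 0 between the UV times and 1, H2-K1, between the clone and 2 weeks of UV. Here too the shares over all genes include symbols that share their values. Between the clone and 5 weeks of UV 1 of 6 differed, where 5.35% of all genes did.

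That gene was H2-K1, with a change of -3.41 in the clone and 2.51 after 5 weeks of UV. The difference was -5.92 (SE 1.91, 95% interval -9.67 to -2.18, adjusted p = 0.0389 by the normal test on the authors' deposited statistics). Against 2 weeks of UV the difference was -4.15 (SE 1.95, 95% interval -7.97 to -0.32, adjusted p = 0.190 by the same test on the authors' deposited statistics). Neither change of H2-K1 was called against control on its own. H2-D1 differed little between the same samples, at -0.26 between the clone and 5 weeks of UV (95% interval -0.99 to 0.48) and 0.010 between 5 and 2 weeks (95% interval -0.71 to 0.73).

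For H2-DMb1 the difference was 3.58 between the clone and 2 weeks of UV (95% interval -0.056 to 7.22, adjusted p = 0.264) and 2.72 between the clone and 5 weeks (95% interval -1.02 to 6.46, adjusted p = 0.738), from the authors' deposited statistics. The order of its 3 changes was not resolved. For Tap1, called in the clone alone, the difference was 1.13 against 2 weeks of UV (95% interval -1.68 to 3.95) and 1.45 against 5 weeks (95% interval -1.71 to 4.61). Its call in the clone therefore does not show that the clone differed from the UV samples. For B2m all 3 differences lay between 0.11 and 0.24, and their intervals ended at 0.57 or lower.

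**Figure D3:**
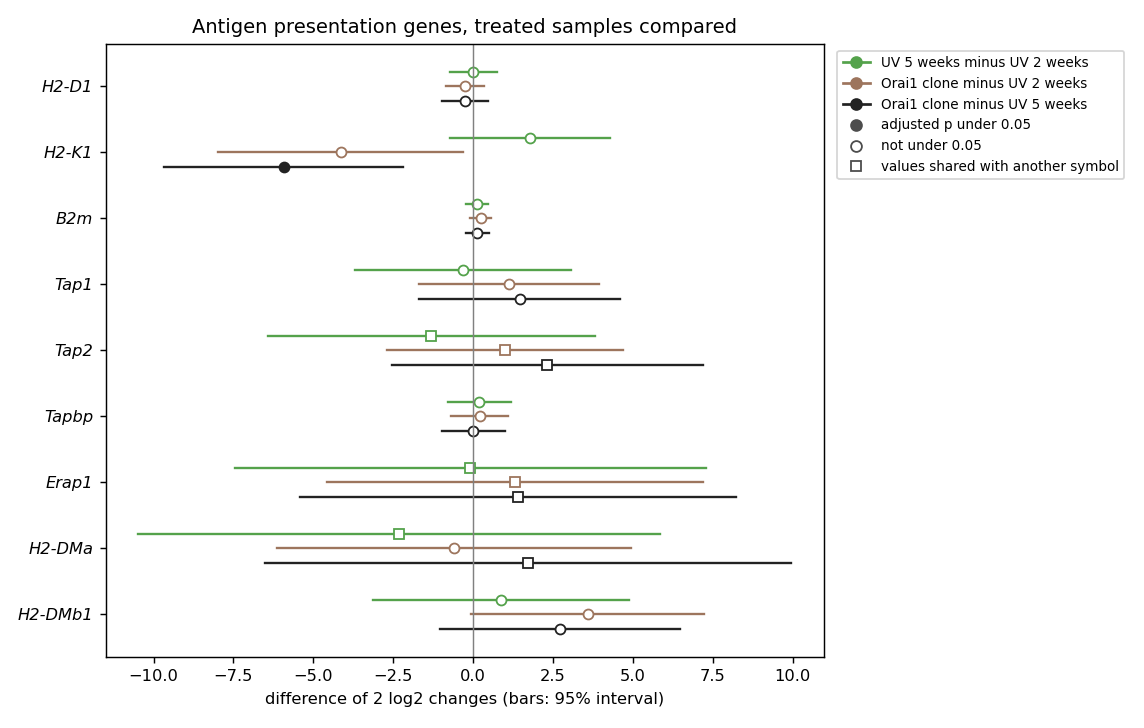
Difference of the log2 changes of 9 antigen presentation genes between 5 and 2 weeks of UV, between the Orai1 clone and 2 weeks of UV, and between the clone and 5 weeks of UV, with 95% intervals; filled points have an adjusted p under 0.05 and squares share their values with another symbol. H2-K1 in the clone against 5 weeks of UV is the single filled point, at -5.92.

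Other genes of antigen presentation were read from 6 lists with 89 genes, of which 26 had no row in any B16N table, among them the immunoproteasome genes Psmb8 and Psmb9, the class II genes H2-Aa and H2-Ab1 and the class II transactivator gene Ciita. Of those with values of their own, 4 of 45 were called higher and 3 lower after 2 weeks of UV (15.6%), 4 of 44 higher and 0 lower after 5 weeks (9.09%), and 6 of 44 higher and 9 lower in the clone (34.1%). Over all genes the shares called were 7.67%, 4.78% and 22%, and over all genes of SE at most 0.5, to which 36, 35 and 36 of the list genes belonged, they were 12.3%, 7.10% and 32.6%. The shares of all genes set beside single lists below include the rows of larger SE, which were called less often, and so make a list's contrast look larger. They also include symbols that share their values, which the list counts leave out. The medians over these genes were -0.049, 0.037 and -0.033, next to medians over all genes of 0.028, 0.025 and 0.072.

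Non-classical class I and related genes had 2 of 5 members higher after 2 weeks of UV, 2 of 5 after 5 weeks and 4 of 5 in the clone, and none lower, where 3.13%, 3.07% and 10.3% of all genes were called higher. Mr1, which presents microbial vitamin B metabolites to MAIT cells, rose by 0.66 after 2 weeks of UV (SE 0.22, adjusted p = 0.0396), 1.57 after 5 weeks (SE 0.28, adjusted p = 2.66e-06) and 1.35 in the clone (SE 0.20, adjusted p = 8.66e-10) in the authors' deposited tables. Hfe, a class I-like regulator of iron uptake that pairs with B2m, rose by 0.71 (SE 0.20), 0.93 (SE 0.25) and 1.12 (SE 0.19) in the same tables. Fcgrt, the heavy chain of the neonatal Fc receptor, rose by 1.45 in the clone (SE 0.33, adjusted p = 1.48e-04), as did the lipid-presenting Cd1d1 (4.35, SE 1.39, adjusted p = 0.0109) by the authors' deposited table. H2-T10 was the fifth and was not called, at -0.033 (SE 0.40), 0.41 (SE 0.42) and 0.36 (SE 0.36) in the authors' deposited tables. The list's medians were 0.71, 0.93 and 1.35. Among those left out, H2-T22 and H2-T24 were not counted because their values were those of Sdr16c5 and Spcs1 in all 3 tables. The shared row of H2-T22 was called higher in the clone (0.97, SE 0.34) in the authors' deposited table, and that of H2-T24 was not called.

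Of the class II partner genes 3 of 4 were lower and none higher in the clone, where 11.6% of all genes were called lower. These were Sppl2a (-1.07, SE 0.11, adjusted p = 4.59e-21), the protease that clears invariant chain remnants, Ifi30 (-0.99, SE 0.21, adjusted p = 5.17e-05), the lysosomal thiol reductase, and the lysosomal protease gene Lgmn (-0.50, SE 0.14, adjusted p = 0.00187) by the authors' deposited table. Sppl2a was also lower after 2 weeks of UV (-0.38, SE 0.097, adjusted p = 0.00237), and 0 of 4 were called after 5 weeks, where Lgmn, at -0.49 (SE 0.18), had the smallest SE, in the authors' deposited tables. Cd74, the invariant chain gene itself, was not called, with 1.49 (SE 1.36), 2.73 (SE 1.25) and -0.46 (SE 1.81) after 2 weeks of UV, after 5 weeks and in the clone in the authors' deposited tables. Ctsl and Ctss were not counted because their values were those of Cnfn and Stip1 in all 3 tables. The shared row of Ctsl was called higher after 2 weeks of UV (0.43, SE 0.091) in the authors' deposited table and was not called in the others.

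The list of peptide loading and editing also holds general chaperones of the endoplasmic reticulum, so its counts are not those of the class I loading complex alone. Of its members 2 of 7 were higher after 2 weeks of UV, 1 of 7 higher after 5 weeks and 3 of 7 lower in the clone. Of all genes 3.13%, 3.07% and 11.6% were called in those directions. In each comparison 6 of the 7 had an SE of at most 0.5, where 12.3%, 7.10% and 32.6% of all genes were called in either direction. Pdia3, the disulfide isomerase of the loading complex, rose by 0.39 (SE 0.081) and the chaperone gene Hspa5 by 0.43 (SE 0.071) after 2 weeks, and Hsp90b1 by 0.76 (SE 0.13, adjusted p = 3.54e-07) after 5 weeks in the authors' deposited tables. In the clone Hspa5 (-0.24, SE 0.089), Pdia6 (-0.38, SE 0.15) and the glycoprotein folding sensor gene Uggt1 (-0.35, SE 0.11) were lower in the authors' deposited table. Canx, the calnexin gene, had the values of Tmem147 in all 3 tables and was not counted. The shared values were -0.20 after 2 weeks of UV (SE 0.069), 0.50 after 5 weeks (SE 0.10) and -0.23 in the clone (SE 0.095) in the authors' deposited tables. Of these the 5-week value was called, and which of the 2 genes was measured is not known.

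Peptide supply genes with values of their own had 1 call, in the clone, where 1 of 7 (14.3%) was called against 22% of all genes. The proteasome activator subunit gene Psme1 was higher there (0.62, SE 0.15, adjusted p = 3.96e-04 by the authors' deposited table), with 0 of 6 called at either UV time. At those times the genes of smallest SE were Psme1 after 2 weeks (-0.19, SE 0.17) and the aminopeptidase gene Lap3 after 5 weeks (0.24, SE 0.20) in the authors' deposited tables. Npepps was not counted because its values were those of Sfrp2 and Wnk2 in all 3 tables. The shared row was called lower in each, at -0.41 (SE 0.10), -0.48 (SE 0.16) and -0.66 (SE 0.11) in the authors' deposited tables. Psme3 and Blmh, with the values of Gm94 and Cbr2, were not counted either. Both shared rows were called higher in the clone (0.33, SE 0.11 and 0.35, SE 0.13) in the authors' deposited table. Among regulators of MHC transcription 2 of 17 were lower after 2 weeks of UV, 0 of 17 were called after 5 weeks and 3 of 16 were lower in the clone, with none higher. Of all genes 4.55% were called lower after 2 weeks, 4.78% were called in either direction after 5 weeks, and in the clone 11.6% were called lower and 22% in either direction, so the regulators' share of calls in the clone, 18.8%, lay below that of all genes. The interferon receptor kinase gene Jak1 fell by 0.36 after 2 weeks (SE 0.095) and 0.81 in the clone (SE 0.11), and the NF-kappaB subunit gene Nfkb1 fell by 0.43 (SE 0.12) and 0.69 (SE 0.12) in the authors' deposited tables. Nfyc, a subunit of the factor that binds the Y box of MHC promoters, fell by 0.37 in the clone (SE 0.13) in the authors' deposited table. After 5 weeks Nfya, another subunit of that factor, had the smallest SE, at -0.11 (SE 0.13) in the authors' deposited table. Nlrc5, the class I transactivator gene, had SEs of 1.89 to 2.36, shared its values in the clone with 1 other symbol and was not called.

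Of the ligands that T and NK cells read on tumour cells, Cd276, an inhibitory B7 family gene, rose by 1.57 after 5 weeks of UV (SE 0.50, adjusted p = 0.0367) and by 2.86 in the clone (SE 0.30, adjusted p = 3.38e-20) in the authors' deposited tables. It was the 1 of 5 called in each (20%), against 4.78% of all genes after 5 weeks and 22% in the clone, and 0 of 6 were called after 2 weeks, where the gene of smallest SE, Nectin2, had -0.43 (SE 0.20) in the authors' deposited table. Cd274, which encodes the checkpoint ligand PD-L1, had changes of 0.27 (SE 1.5), -1.89 (SE 2.19) and 1.70 (SE 1.13) after 2 weeks of UV, after 5 weeks and in the clone in the authors' deposited tables and was not called. Raet1d was not counted because its values were those of B3gat3 in all 3 tables. The shared values were 0.52 (SE 0.41), 0.40 (SE 0.47) and 1.18 (SE 0.36) in the same order in the authors' deposited tables. This shared row was called higher in the clone and was not called at either UV time.

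**Figure D4:**
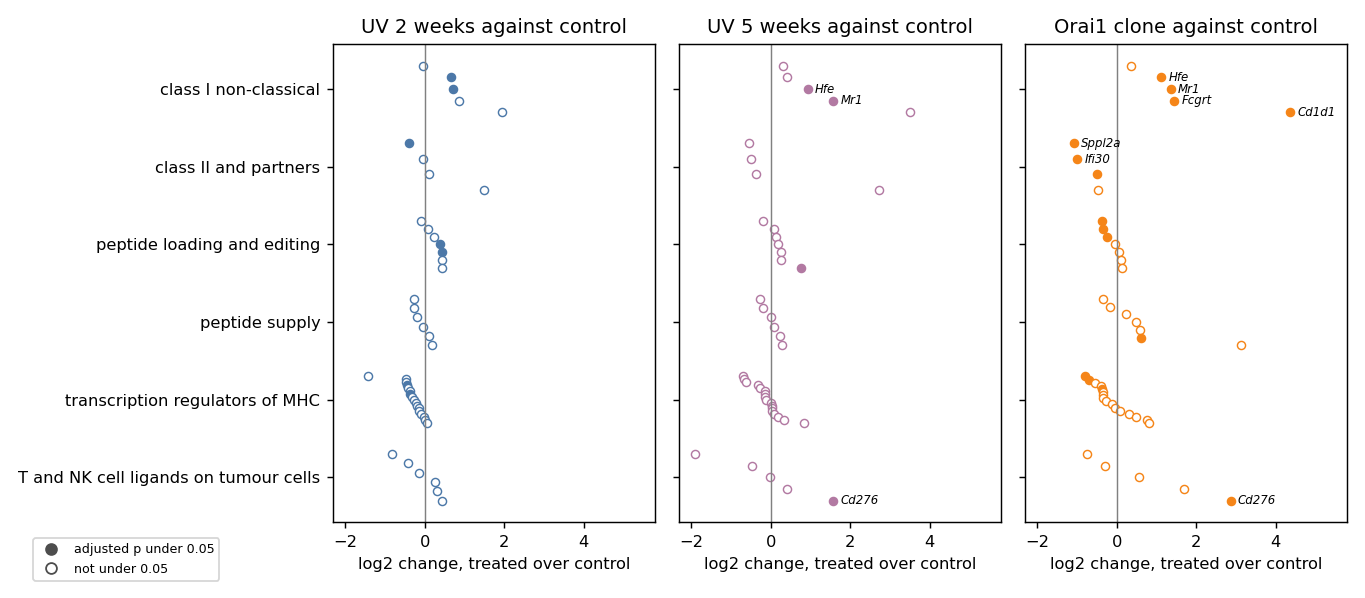
Log2 change of treated over control for genes of 6 antigen presentation lists with values of their own, one row of points per list and one panel per B16N comparison; filled points have an adjusted p under 0.05, and called genes with a change of at least 0.9 on the log2 scale are named. In the clone the non-classical class I genes lie to the right of 0 and the class II partners to the left.

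The 2 human tables name 420 genes, the same ones in both lines. The WM983 table is a selection: 419 of its genes had a change of at least 2-fold and 99.5% a deposited p under 0.05, so a large value there is fixed by the selection and is given as a description. In UACC257, 10% of the same genes had a deposited p under 0.05. Which sample is in the numerator is not stated and could not be checked, so signs are as deposited. HLA-F, HLA-F-AS1, HLA-DPA1 and TAP2 are described here.

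The 250 bases before the start of HLA-F and of TAP2 are shown as a description. They are from RefSeq (GRCh38.p14), read 5′ to 3′ on the gene's strand, chr6:29723184-29723433 on the plus strand and chr6:32838740-32838989 on the minus strand. Capitals mark matches, on either strand, to GAAA followed by any 2 bases and a further GAAA, the core bound by interferon regulatory factors, and to CCAAT, the core of the Y box.
HLA-F: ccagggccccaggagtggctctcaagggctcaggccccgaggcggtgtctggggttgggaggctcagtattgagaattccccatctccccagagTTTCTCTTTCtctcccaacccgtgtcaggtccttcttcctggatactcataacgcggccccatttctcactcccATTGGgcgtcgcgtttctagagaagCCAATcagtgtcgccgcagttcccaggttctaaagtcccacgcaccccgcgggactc
TAP2: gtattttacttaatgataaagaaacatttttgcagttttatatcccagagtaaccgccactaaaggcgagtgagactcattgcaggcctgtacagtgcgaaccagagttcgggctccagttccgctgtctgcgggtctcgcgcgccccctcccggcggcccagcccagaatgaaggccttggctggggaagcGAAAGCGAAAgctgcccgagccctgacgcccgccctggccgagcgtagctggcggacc
The motifs do not overlap in these windows. HLA-F holds 1 match to the first motif and 2 to the second, and TAP2 1 and 0. Of 35116 promoter windows of this length, 3.02% hold the first motif and 32% the second. A match describes the letters and is not a measured site, and a link between these motifs and the values of the 2 genes was not tested.

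HLA-F, a non-classical class I gene, had a deposited log2 value of 1.14 in WM983 (p = 5e-05) and -0.0035 in UACC257 (p = 0.985) in the authors' deposited tables. TAP2 had -1.18 in WM983 (p = 5e-05) and 0.16 in UACC257 (p = 0.301) in the authors' deposited tables. The smallest deposited p of the WM983 table, 5e-05, was given to 351 of its genes, so it does not rank them. The class II chain gene HLA-DPA1 had 1.40 in WM983 and -0.33 in UACC257 in the authors' deposited tables. HLA-F-AS1, annotated antisense to HLA-F, had 1.15 in WM983 and -0.38 in UACC257, and without stated strand-specific counting its reads cannot be told apart from those of HLA-F. In WM983 HLA-F, HLA-F-AS1 and HLA-DPA1 had one sign and TAP2 the other, and in UACC257 the signs were reversed for these 4 genes, with p-values of 0.146 to 0.985 in the authors' deposited table. Whether both tables run the same way is not stated either, and the difference between the lines was not tested.

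**Figure D5:**
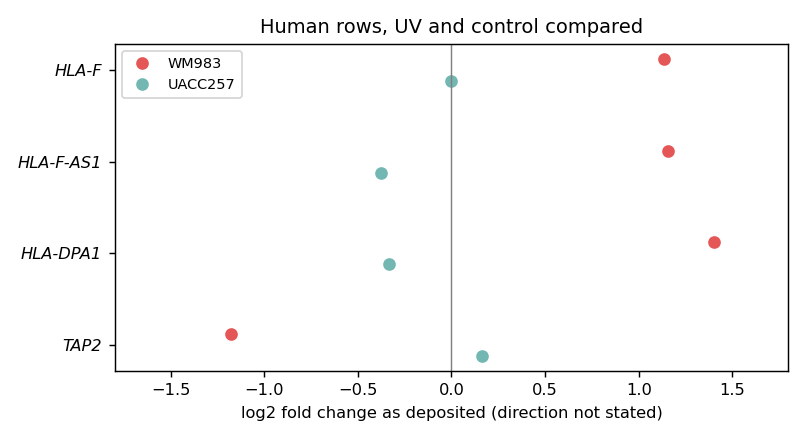
Log2 values as deposited for 4 human genes in WM983 and UACC257, UV and control compared; the direction of the values is not stated in the tables and no error bar can be given. The WM983 values lie beyond 1 on either side of 0 and the UACC257 values between -0.38 and 0.16.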

How the data were processed

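GRCm38 is the single genome build named in the submitters' processing notes, also for the human samples; the aligner, the counting, the test and the human build are not given in the sources used here. In each of 5 tables the authors deposited, per the file headers, 3 quantities per gene: a log2 fold change, the score of a statistical test and its p-value. The deposited log2 values of the B16N tables were turned in sign: all 1357 genes with a row in a single B16N table had a negative value, as when the control is in the numerator. The human signs were kept. The SE is the log2 value divided by the score, since each deposited p-value of the B16N tables equals the two-sided normal p of that score (largest gap 5.0e-08). A row without a symbol per table and 3 rows of the clone's table without a p-value were left out.

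Deposited p-values were Benjamini-Hochberg adjusted across all genes of a table. Differences between comparisons used a normal test with both SEs added in squares, adjusted over all genes in both tables; the spread of the common control is thus counted in each. Symbols sharing both values with another symbol (28.9%, 29.3% and 29.1% of the 3 tables) stayed in the adjustment. They were left out of the counts and medians of members and lists, and kept in the shares and medians over all genes. Members and lists were chosen with earlier results of these data known. Named genes are all members, the human genes of the same function (a result is not reported here) and, of each list, those called, at most 4 per comparison, or the gene of smallest SE where none was, with genes that were not called (H2-T10, Cd74, Nlrc5, Cd274) and H2-K2 chosen after the values were seen. The steps were tested on simulated data. Python 3.11.15, numpy 2.4.6, pandas 2.3.3 and scipy 1.17.1 were used.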

Additional observations from a re-analysis of the deposited data

Results flagged for a closer look

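A test of the difference between treated B16N samples passed an adjusted p of 0.05 for 1 of the 10 genes, H2-K1, and for 12 differences over 8 genes of the lists, leaving out symbols that share values. These were 1 of 44 list genes between 5 and 2 weeks of UV, 7 of 43 between the clone and 2 weeks and 4 of 43 between the clone and 5 weeks, where 3.33%, 11.7% and 5.35% of all genes differed. H2-K1 had changes of opposite sign, -3.41 in the clone (SE 1.71) and 2.51 after 5 weeks of UV (SE 0.86), a difference of -5.92 on the log2 scale, and neither was called against control. Hsp90b1 was higher after 5 than after 2 weeks of UV (0.69) and lower in the clone than after 5 weeks (-0.66). In the clone against 2 weeks of UV, Cd276 (2.54) and Psme1 (0.81) were higher, and Ifi30 (-1.10), Sppl2a (-0.69), Hspa5 (-0.67), Pdia6 (-0.63) and Jak1 (-0.45) were lower. In the clone against 5 weeks of UV, Sppl2a (-0.70), Hspa5 (-0.50) and Jak1 (-0.68) were lower.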

How the results depend on the processing

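No paired analysis was possible because each group had 1 labelled sample, and no replicate could be left out. Of the values of single members under the alternatives below, 109 kept their status as called or not called and 5 lost the call. Those 5 came from an adjusted p under 0.01 (4) or a 2-fold minimum (H2-D1). A turn in direction was looked for in called values alone, and 0 turned. Values that were not called could not change under a stricter p or a fold minimum. Values removed by the SE limit were not counted, so the 109 do not measure stability. An adjusted p under 0.01 left 0 of the 2 members called after 2 weeks of UV, 0 of 1 after 5 weeks and 1 of 2 in the clone, which was H2-DMb1. A 2-fold minimum left 1 member after 2 weeks, and 0, 2 and 6 list genes after 2 weeks, after 5 weeks and in the clone, where 7, 4 and 15 were called without it; a 1.5-fold minimum left 2 list genes after 2 weeks. With SE at most 0.5 alone, 1 member was called after 2 weeks and 0 in the others, and 0 differed between the clone and 5 weeks of UV, H2-DMb1, Tap1 and H2-K1 having larger SEs. The members' medians were then -0.047, 0.074 and 0.20, and with members that share values 1.03, 0.74 and 1.73, against 0.73, 0.96 and 1.10. With 0.5 of the smaller squared SE taken as the control's, the adjusted p of H2-K1 was 0.0078 between the clone and 5 weeks of UV and 0.0696 between the clone and 2 weeks; with medians set to 0 it was 0.0398 and 0.189. Depth is unknown, and SEs above 1 limit H2-DMa, H2-DMb1, Tap2 and Erap1 in all 3 comparisons.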
